A study of Rattus norvegicus with 36 samples.

Results

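These are the 100 genes whose liver RNA level was most negatively correlated with the dose of decaBDE (decabromodiphenyl ether, a brominated flame retardant) in male rats. They were taken from 9867 genes with 1 gene symbol and a mean of 5 or more on the log2 scale of the arrays, each represented by its brightest probe set. Dose was ranked 0 for vehicle and 1 to 5 for the rising doses, and the 100 lowest Spearman correlations (rho) over 36 Affymetrix arrays were kept. Symbols that start with Cyp, Acot or Fads were left out first, as were Aldh18a1, Ak4, Pemt, Pik3ap1, Gls2, Hal and Asns.

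The animals were Harlan Sprague Dawley rats, 7 weeks of age at the start, on NTP-2000 diet. Every group received corn oil by gavage at 5 ml/kg once daily for 5 days, and decaBDE was given in it at 0.1 mg/kg per day in the lowest group, 0.959 and 9.59 in the next, and 95.9 and 959 mg/kg in the highest, with vehicle alone as the control. Each of these 6 groups has 6 arrays of RNA from the left liver lobe, taken a day after the last dose. The labels number the arrays within a group but do not state that each came from a separate rat, so the errors below rest on the spread between arrays. Standard errors (SE) are those of limma after variance moderation, which draws each gene's variance toward a value shared by all probe sets. For genes with little spread between arrays, such as Fabp1, they are larger than the gene's own spread alone would give.

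Liver burns fatty acids in mitochondria and peroxisomes. Acyl chains are activated to coenzyme A esters, moved across the mitochondrial membranes on carnitine, and shortened by repeated rounds of dehydrogenation, hydration and thiolysis; the receptor PPARA drives many of these genes. Hepatocytes also secrete most plasma proteins, fibrinogen among them. Every protein they make needs aminoacyl-tRNA synthetases, the enzymes that load amino acids onto their transfer RNAs, and the genes of several synthetases are targets of ATF4, a transcription factor of the response to amino acid shortage.

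The promoters of 84 of the 100 genes were found by gene ID in the RefSeq table for the rat assembly GRCr8, which covers 250 bases before to 50 after the start of each gene. ATF4 pairs with C/EBP proteins on a composite element whose core was searched as TGATGCAA, on both strands. It is shown because 4 of the 84 promoters held it (4.76%), against 0.622% of the 9171 promoters of genes with a mean of 5 or more and 0.795% of all 33469 promoters in the table. A looser form, TGATGNAA, which also counts every TGATGCAA, was held by 6 of 84 (7.14%), against 1.95% and 3.98%. Both forms were chosen after the members were known, and a match is a run of letters, not a measured binding site. In the promoters below the match is in capitals and reads TTGCATCA, the reverse complement, so the core lies on the opposite strand. The Cars1 promoter is at chr1:208225320-208225619, minus strand, with the first base of the match 17 bases after the start base of the gene. Iars1 is at chr17:15193603-15193902, minus strand, with the match 24 bases before it, and Mars1 is at chr7:65023704-65024003, minus strand, with the match 17 bases before it. Serpinb9b is at chr17:31594934-31595233, minus strand, with the match 131 bases before it.
Cars1: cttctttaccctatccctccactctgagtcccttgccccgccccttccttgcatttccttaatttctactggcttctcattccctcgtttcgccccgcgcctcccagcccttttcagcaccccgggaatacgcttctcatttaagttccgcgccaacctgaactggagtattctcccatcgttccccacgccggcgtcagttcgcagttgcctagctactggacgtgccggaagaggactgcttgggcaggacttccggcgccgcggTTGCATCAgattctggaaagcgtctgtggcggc
Iars1: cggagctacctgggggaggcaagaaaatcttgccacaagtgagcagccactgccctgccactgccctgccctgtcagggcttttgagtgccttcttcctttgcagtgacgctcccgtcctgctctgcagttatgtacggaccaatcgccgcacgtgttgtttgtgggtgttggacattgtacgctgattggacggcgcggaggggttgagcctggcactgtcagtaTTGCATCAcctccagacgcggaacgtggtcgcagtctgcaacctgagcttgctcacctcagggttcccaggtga
Mars1: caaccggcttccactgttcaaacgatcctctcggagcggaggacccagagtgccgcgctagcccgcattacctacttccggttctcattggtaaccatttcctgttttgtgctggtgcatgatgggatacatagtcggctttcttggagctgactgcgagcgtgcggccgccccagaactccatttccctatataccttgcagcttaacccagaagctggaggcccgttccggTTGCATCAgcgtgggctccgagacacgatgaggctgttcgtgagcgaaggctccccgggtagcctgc
Serpinb9b: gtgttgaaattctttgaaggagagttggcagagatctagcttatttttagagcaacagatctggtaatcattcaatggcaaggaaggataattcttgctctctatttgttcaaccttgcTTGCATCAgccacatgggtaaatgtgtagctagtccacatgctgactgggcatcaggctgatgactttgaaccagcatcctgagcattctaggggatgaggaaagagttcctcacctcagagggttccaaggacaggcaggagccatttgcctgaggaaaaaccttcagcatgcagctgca

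Of 10 other sequences searched, CAAAGTCCA, a core bound by the hepatocyte factor HNF4A, was in 2 of 84 promoters (2.38%), against 0.349% of the same 9171. They were those of Abcb4 and Pdia5. Abcb4 is printed because it is the member with the lowest adjusted p for a straight line in dose. Its promoter is at chr4:26164096-26164395, minus strand, with the match, in capitals, 30 bases before the start base.
Abcb4: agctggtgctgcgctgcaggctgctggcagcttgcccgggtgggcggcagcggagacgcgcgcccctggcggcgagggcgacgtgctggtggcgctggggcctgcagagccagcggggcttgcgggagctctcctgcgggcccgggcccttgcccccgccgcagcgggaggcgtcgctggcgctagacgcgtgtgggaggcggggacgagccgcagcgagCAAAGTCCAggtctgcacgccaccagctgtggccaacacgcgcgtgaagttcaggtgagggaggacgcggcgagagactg
The GC box GGGCGG was in 53.6% of the member promoters and 61.2% of the 9171. The core GCGTG of the Ah receptor element was in 45.2% and 48.9%, and the C/EBP core TTGCNNAA in 14.3% and 8.48%. The E-box CACGTG was in 5.95% and 9.42%, and the antioxidant response core TGACNNNGC in 20.2% and 14.8%. The CCAAT box was in 36.9% and 37.6%, and the TATA box TATAAA in 7.14% and 7.23%. Direct repeats of AGGTCA with 1 or 4 bases between were in 0 of 84, and in 0.0436% and 0.0% of the 9171.

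The tissue label was checked against marker genes. All 14 measured hepatocyte markers had means of 9.55 (Tat) or more. The mean over the hepatocyte list was 13.74 to 13.84 on vehicle arrays and differed by -0.06 between 959 mg/kg and vehicle. The mean over the Kupffer cell and macrophage list, 13 of 13 of them above a level of 5, was 8.52 to 9.44 on vehicle arrays and differed by -0.11. Of 18 measured lymphocyte markers 10 reached a level of 5, and their list mean differed by -0.07. Cholangiocyte markers, 3 of 7 of them above a level of 5, had a list mean of 4.86 to 5.28 in vehicle and 4.95 to 5.68 at 959 mg/kg, a difference of 0.23, and all 7 were higher. Pericentral hepatocyte markers had 10.07 to 10.27 and 10.18 to 10.29, a difference of 0.12. At 959 mg/kg the other cell type lists differed by -0.10 (erythroid) to 0.09 (neutrophil). List means also shifted at lower doses. The hepatocyte mean was 13.787 in vehicle and 13.728, 13.714, 13.703, 13.689 and 13.731 from the lowest dose to the highest. The macrophage mean was 9.196 in vehicle and 8.818, 8.817, 8.925, 9.086 and 9.087. Periportal markers had 10.762 in vehicle and 10.61 at 9.59 mg/kg, and stellate cell markers 7.818 in vehicle and 8.132 at 95.9 mg/kg. The part of these differences in the members' values was not tested. The difference between the 3' and 5' probe sets of actin, a sign of RNA degradation, differed by -0.02 between 959 mg/kg and vehicle. Over the treated groups it fell with dose, with means of 1.243, 1.225, 1.204, 1.168 and 1.138, against 1.158 in vehicle. For Gapdh the means were -0.043, -0.072, -0.031, -0.1 and -0.095, against -0.08. The within-group correlation of the actin difference with the members had a median of 0.116 (-0.392 to 0.586, highest for Prkd3), and its part in their values was not tested. In whole tissue, fewer cells of a type and less RNA per cell cannot be told apart. The array of lowest weight (0.517) was replicate 6 at 0.1 mg/kg. For 31 of the 100 genes it was the lowest of its 6 arrays, as it was for 16.8% of all 9867 genes, and some values are also given without it.

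**Figure D1:**
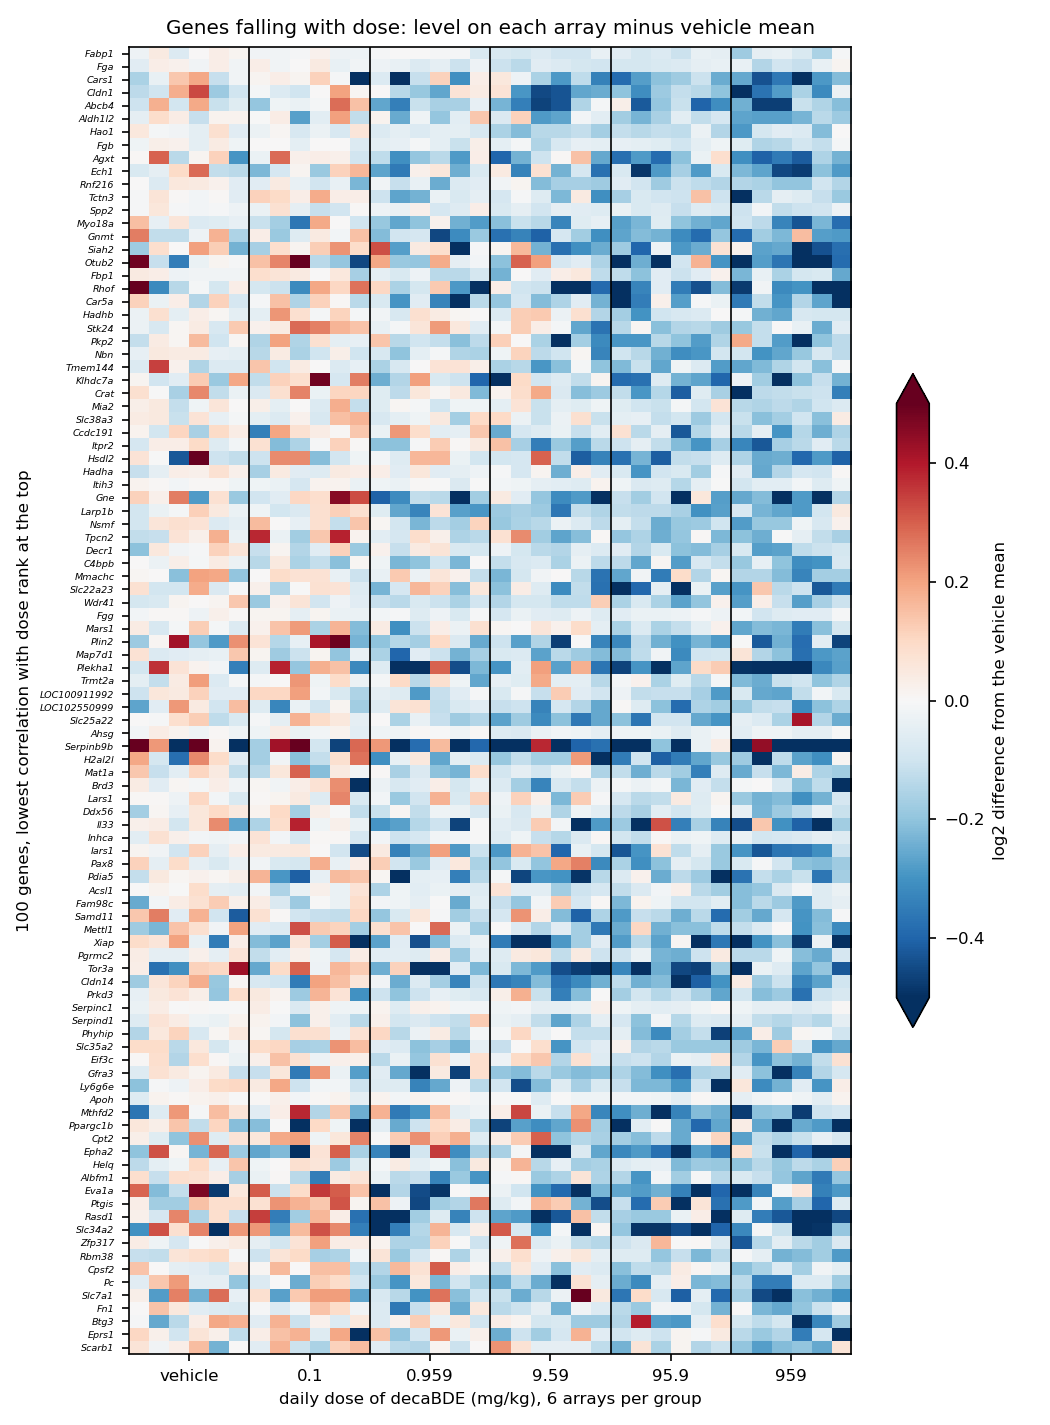
Log2 level of each of the 100 genes on each of 36 arrays minus the mean of that gene's 6 vehicle arrays (colour, cut at the ends of the scale), with genes ordered by rho and arrays by dose. The columns at 95.9 and 959 mg/kg are mostly blue, and single dark cells at 0.1 mg/kg replicate 6 stand out in rows such as Cars1, Iars1, Xiap and Eprs1.

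The lowest rho was -0.65 (Fabp1), and the last genes inside were Btg3, Eprs1 and Scarb1, tied at -0.446. Just outside were Gpcpd1 and R3hcc1 (-0.445) and Pzp (-0.444), so the limit marks no gap. With the left-out genes 113 genes lay at or below it, while 327 genes lay at or above the same value with its sign turned. All differences below are log2 values against vehicle, and since they chose the genes they are a description. The median difference of the 100 was -0.003 at 0.1, -0.066 at 0.959, -0.096 at 9.59, -0.156 at 95.9 and -0.176 at 959 mg/kg. Over all 9867 genes the medians were 0.006, 0.012, 0.022, 0.02 and 0.004. The number of members below vehicle was 53, 90, 91, 100 and 100 at the 5 doses. Without replicate 6 the median at 0.1 mg/kg was 0.003, and 40 of 100 had a difference there that rounded to -0.01 or lower. Differences that rounded to 0 were not counted, so the 40 cannot be set against the 53. The mean was lowest at 959 mg/kg for 64 genes, at 95.9 for 23 and at 9.59 for 13, and it was lower at 959 than at 95.9 mg/kg for 71.

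The differences of most members were small, and none passed a test at a single dose. At 959 mg/kg they ran from -1.28 to -0.02, with standard errors of 0.032 to 0.454 (median 0.072). By limma with Benjamini-Hochberg adjustment over 31042 probe sets, 0 members passed at any dose, where 0.0%, 0.029%, 0.116%, 0.0902% and 0.11% of probe sets passed from the lowest dose to the highest. The smallest adjusted p of a member at 959 mg/kg was 0.175, and 75 members had an unadjusted p under 0.05 there, as had 6.08% of probe sets. Without variance moderation 0 members passed at 959 mg/kg as well. For a straight line in dose rank 2 members passed, Abcb4 and Cldn1, where 0.393% of probe sets passed and 0.058% passed downward. As the line measures what the rule selected on, nothing is read from these counts. All 6 arrays lay below every vehicle array for 0, 1, 10, 7 and 12 members from the lowest dose to the highest, and for 0.0608%, 0.253%, 0.172%, 0.182% and 0.253% of the 9867 genes. The 12 at 959 mg/kg were Cars1, Mars1, Lars1, Iars1, Abcb4, Aldh1l2, Ech1, Fbp1, C4bpb, Rnf216, Myo18a and Nbn.

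The members were brighter than most genes. Their median level was 8.36 against 7.48 for all 9867, and 18 of 100 had a mean of 12 or more, where 3.17% of all genes did. These 18 had a median SD of 0.035 over vehicle arrays, against 0.119 over all genes, and differed by -0.188 to -0.02 at 959 mg/kg (median -0.089). A rank correlation orders such small differences as it does large ones.

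**Figure D2:**
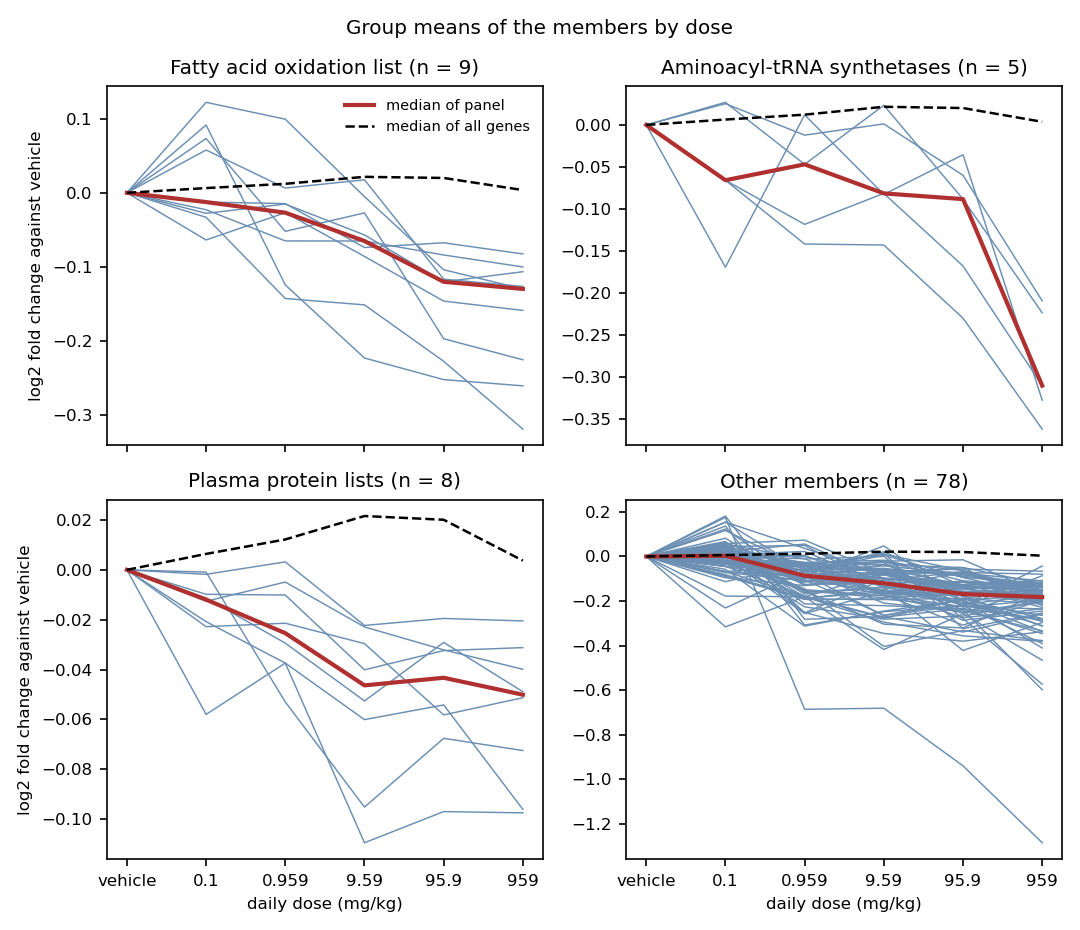
Group mean of each member minus its vehicle mean (log2, y axis, scaled per panel) against daily dose in mg/kg, for the fatty acid oxidation list (9 genes), the synthetases (5), the 8 plasma protein genes of the lists and the other 78. Red is the median of the panel and the dashed line the median of all genes, which stays between 0 and 0.022.

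Fatty acid oxidation was the list with the most members. Of 35 measured genes on a list of PPARA targets and fatty acid oxidation, 9 were members (25.7%, where 1.01% of all genes were). Of the 35, 28 had a rho below 0 and 26 were below vehicle at 959 mg/kg. Over all 9867 genes 4450 had a rho below 0 and 48.2% were below vehicle at 959 mg/kg. The same values apply to such counts for the lists below. The median rho of the list was -0.218 and its median difference at 959 mg/kg was -0.067, against 0.028 and 0.004 over all genes. By limma none of the 35 passed over all probe sets at 959 mg/kg or for the line in dose. An unadjusted p under 0.05 at 959 mg/kg was found for 8 of 35, all downward, where 6.08% of probe sets had such a p in either direction, and without variance moderation 0 passed there and 1 for the line. The members' median difference was -0.01, -0.03, -0.07, -0.12 and -0.13 from the lowest dose to the highest.

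Ech1 is an isomerase for unsaturated chains. Its level (lowest, median, highest of 6 arrays) was 10.41, 10.48 and 10.83 in vehicle, 10.32, 10.51 and 10.71 at 0.1, 10.19, 10.38 and 10.6 at 0.959, 10.17, 10.38 and 10.62 at 9.59, 10.06, 10.32 and 10.47 at 95.9, and 10.07, 10.27 and 10.34 at 959 mg/kg. All arrays at 959 mg/kg were below the vehicle range, those at lower doses overlapped it, and the mean difference was -0.32 (SE 0.091). Crat, which moves acetyl groups between carnitine and coenzyme A, had levels of 8.58, 8.72 and 8.98 in vehicle and 8.19, 8.62 and 8.64 at 959 mg/kg. Most of its arrays still lay within the vehicle range, with 2 of 6 below it (difference -0.23, SE 0.082). Plin2, which coats lipid droplets, went from 11.74, 11.93 and 12.44 to 11.56, 11.71 and 12.02 (difference -0.26, SE 0.113), with 3 of 6 arrays below the vehicle range.

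The trifunctional protein of the mitochondrial inner membrane carries out the later steps of each round on long chains. Its subunit genes were both members. Hadhb had levels of 11.86, 11.9 and 11.99 in vehicle and 11.65, 11.82 and 11.9 at 959 mg/kg, a difference of -0.13 (SE 0.057) with 5 of 6 arrays below the vehicle range. Hadha had 10.9, 11.04 and 11.09 in vehicle and 10.76, 10.93 and 11.02 at 959 mg/kg, a difference of -0.11 (SE 0.054) with 2 of 6 below. Decr1, the dienoyl-CoA reductase for unsaturated chains, differed by -0.16 (SE 0.055). Acsl1, which activates long chains, differed by -0.10 (SE 0.047), and Cpt2, which returns acyl groups from carnitine to coenzyme A inside the mitochondrion, by -0.13 (SE 0.078). The mean of Cpt2 was above vehicle at 0.1 (0.12) and 0.959 mg/kg (0.10) and below it at the highest doses. Fabp1, the liver fatty acid-binding protein and the gene of lowest rho, had levels of 14.18, 14.26 and 14.29 in vehicle and 14.07, 14.19 and 14.24 at 959 mg/kg. Its difference was -0.08 (SE 0.036), a vehicle level 1.06 times that at 959 mg/kg.

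Of the other lipid genes, Abcb4, the canalicular transporter that moves phosphatidylcholine into bile, had levels of 8.81, 8.85 and 9.11 in vehicle and 8.73, 8.9 and 9.2 at 0.1 mg/kg. At 0.959 mg/kg they were 8.58, 8.76 and 8.88, at 9.59 mg/kg 8.46, 8.64 and 8.91, at 95.9 mg/kg 8.5, 8.67 and 8.95, and at 959 mg/kg 8.45, 8.69 and 8.81. Groups from 9.59 mg/kg upward sat at about the same level, and every array at 959 mg/kg was at or below the lowest vehicle array to 2 decimals. The mean differences were 0.03, -0.18, -0.27, -0.23 and -0.28 (SE 0.088). The adjusted p of its line in dose rank was 0.0317 by limma, a value on the measure that chose it. It was lost, with adjusted p up to 0.0935, without vehicle replicate 2 or 4, 0.1 mg/kg replicate 5, 95.9 mg/kg replicate 2, 5 or 6, or 959 mg/kg replicate 2 or 3. Of 23 measured genes of bile acid synthesis and transport it was the only member, 13 were below vehicle at 959 mg/kg, and for the line 1 passed downward (Abcb4) and 1 upward. Ppargc1b, a coactivator of mitochondrial genes, differed by -0.33 (SE 0.121) and Hsdl2, a peroxisomal enzyme, by -0.29 (SE 0.113), though none of its arrays was below the vehicle range. Ptgis, the prostacyclin synthase, differed by -0.20 (SE 0.122) and Scarb1, the receptor for high-density lipoprotein, by -0.18 (SE 0.07).

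Members among the cytosolic aminoacyl-tRNA synthetases were low mainly at the highest dose. The members were Cars1, Mars1, Lars1, Iars1 and Eprs1, for cysteine, methionine, leucine, isoleucine, and glutamate with proline. They were 5 of 19 measured cytosolic synthetases (26.3%), a list written after the members were known. Of the 19, 17 had a rho below 0, as had 4450 of all 9867 genes, and the list's median difference at 959 mg/kg was -0.136. With the brightest probe set of each, none of the 19 passed over all probe sets at 959 mg/kg or for the line, by limma or without variance moderation. An unadjusted p under 0.05 at 959 mg/kg was found for 8 of 19, all downward, where 6.08% of probe sets had such a p in either direction. The members' median difference was -0.07, -0.05, -0.08, -0.09 and -0.31 from the lowest dose to the highest. Without replicate 6 the median at 0.1 mg/kg was 0.05, above vehicle, and without replicate 6 at 959 mg/kg the median there was -0.25. With all arrays the mean at 959 mg/kg was the lowest of the groups for all 5. The number of synthetases among the 100 was 2 without 959 mg/kg replicate 2, 3 without 959 mg/kg replicate 1, and 8 without vehicle replicate 3 or without 95.9 mg/kg replicate 6.

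Cars1 had levels of 8.56, 8.69 and 8.91 in vehicle, 8.14, 8.73 and 8.83 at 0.1, 8.2, 8.63 and 8.83 at 0.959, 8.38, 8.57 and 8.77 at 9.59, 8.33, 8.49 and 8.61 at 95.9, and 8.07, 8.4 and 8.5 at 959 mg/kg. At 959 mg/kg all 6 arrays lay below the vehicle range, and at 95.9 mg/kg 5 did. The difference at 959 mg/kg was -0.36 (SE 0.10), a vehicle level 1.29 times higher. Its array at 0.1 mg/kg replicate 6 was the low one in that group, and without it the group's difference was 0.04 in place of -0.07. Mars1 had levels of 9.67, 9.74 and 9.87 in vehicle, 9.59, 9.65 and 9.77 at 95.9 and 9.4, 9.53 and 9.66 at 959 mg/kg, a difference of -0.22 (SE 0.066). Lars1 went from 9.16, 9.23 and 9.34 in vehicle to 8.93, 9.01 and 9.15 at 959 mg/kg (-0.21, SE 0.062), and Iars1 from 8.3, 8.4 and 8.51 to 7.97, 8.06 and 8.29 (-0.31, SE 0.097). For each of these 3 genes too all 6 arrays lay below the vehicle range.

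Eprs1 had 10.45, 10.6 and 10.68 in vehicle, 9.08, 10.66 and 10.77 at 0.1 mg/kg and 9.52, 10.41 and 10.49 at 959 mg/kg. Its difference at 0.1 mg/kg was -0.17 with replicate 6 and 0.10 without it, and that at 959 mg/kg was -0.33 with replicate 6 of that dose and -0.18 without it. Of 21 measured genes on a list of ATF4 targets and amino acid stress, only Mthfd2, a mitochondrial folate enzyme, was a member. The list shares synthetase genes with the list above. At 959 mg/kg 20 of the 21 were below vehicle (median -0.17), as were 48.2% of all 9867 genes. A rho below 0 was found for 17 of the 21, and for 4450 of the 9867. By limma, and without variance moderation, none of the 21 passed. An unadjusted p under 0.05 at 959 mg/kg was found for 8, all downward, against 6.08% of probe sets in either direction. The levels of Mthfd2 were 6.07, 6.46 and 6.65 in vehicle, 5.85, 6.16 and 6.22 at 95.9 and 5.96, 6.24 and 6.35 at 959 mg/kg. Other members act on transfer RNA or messenger RNA. They were the tRNA methyltransferases Mettl1 and Trmt2a, the initiation factor subunit Eif3c, the RNA helicase Ddx56, the polyadenylation factor Cpsf2, and the RNA-binding proteins Larp1b and Rbm38. These 7 differed by -0.17 to -0.11 at 959 mg/kg.

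**Figure D3:**
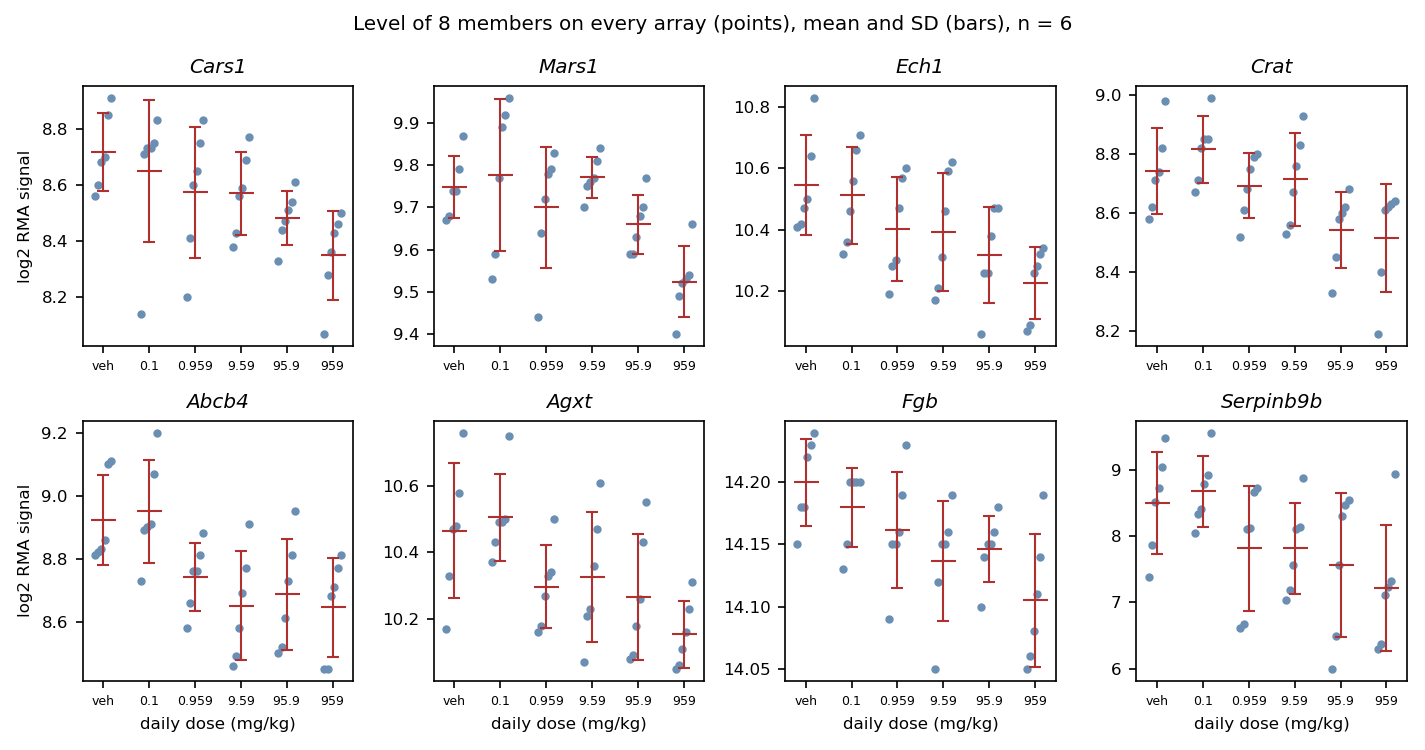
Log2 level of 8 members on every array (points, drawn from low to high within each dose group), with the mean and SD of 6 arrays (bars); the x axis is daily dose in mg/kg and each y axis is scaled to its gene. At 959 mg/kg every point of Cars1, Mars1 and Ech1 lies below the lowest vehicle point, while Serpinb9b spreads over more than 2 log2 units within that group.

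Genes of secreted plasma proteins were among the brightest members and their differences were small. The 13 of them had a median level of 13.84, where the highest level of any gene was 14.98, and differed by -0.20 to -0.02 at 959 mg/kg, with a median of -0.07. All fibrinogen chain genes were members. Fgb had levels of 14.15, 14.2 and 14.24 in vehicle and 14.05, 14.09 and 14.19 at 959 mg/kg, a difference of -0.10 (SE 0.037) with 5 of 6 arrays below the vehicle range. Fga had 14.18, 14.24 and 14.27 in vehicle, 14.1, 14.14 and 14.18 at 9.59 and 14.09, 14.17 and 14.25 at 959 mg/kg, with its lowest mean at 9.59 (-0.10) rather than 959 mg/kg (-0.07, SE 0.035). Fgg differed by -0.05 at both of these doses (SE 0.032 at 959 mg/kg).

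The other secreted members were the trypsin inhibitor chain Itih3 (-0.05), fetuin Ahsg (-0.03), antithrombin Serpinc1 (-0.04), heparin cofactor Serpind1 (-0.10), Apoh (-0.02), the secreted phosphoprotein Spp2 (-0.08), fibronectin Fn1 (-0.13), Inhca (-0.07) and Albfm1 (-0.20). C4bpb, a chain of the complement regulator C4b-binding protein, had levels of 12.37, 12.4 and 12.44 in vehicle and 12.09, 12.21 and 12.36 at 959 mg/kg. It differed by -0.19 (SE 0.056), with all 6 arrays below the vehicle range. Of 19 measured acute phase genes 4 were members (21.1%), 12 were below vehicle at 959 mg/kg, and for the line by limma 1 passed upward and 0 downward. An unadjusted p under 0.05 for the line was found for 7, 3 of them downward, where 8.71% of probe sets had such a p in either direction. Without variance moderation 3 passed for the line, 2 of them downward. Of 50 genes on a list of coagulation, complement and plasma proteins, which shares C3 with the acute phase list, 3 were members (6%), with a median rho of -0.046. By limma, and without variance moderation, none of the 50 passed. At 959 mg/kg 5 had an unadjusted p under 0.05, 3 of them downward, against 6.08% of probe sets in either direction. Of 14 hepatocyte markers 4 were members (Fga, Fgb, Ahsg and Apoh) and 8 were below vehicle at 959 mg/kg, and the list mean differed by -0.06. The part of that difference in the values of the secreted members was not tested.

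Enzymes of amino acid, glucose and one-carbon metabolism made up 10 members, with a median difference of -0.20 at 959 mg/kg. Agxt, the aminotransferase that removes glyoxylate, had levels of 10.17, 10.47 and 10.76 in vehicle and 10.05, 10.13 and 10.31 at 959 mg/kg, a difference of -0.31 (SE 0.091) with 4 of 6 arrays below the vehicle range. Hao1, the glycolate oxidase that makes glyoxylate in peroxisomes, had 12.65, 12.7 and 12.79 in vehicle, 12.49, 12.56 and 12.59 at 9.59 and 12.42, 12.63 and 12.71 at 959 mg/kg. All of its arrays at 9.59 mg/kg lay below the vehicle range, and 4 of 6 at 959 mg/kg. Mat1a makes S-adenosylmethionine and Gnmt consumes it. Gnmt had 11.97, 12.05 and 12.38 in vehicle and 11.74, 11.88 and 11.93 at 95.9 mg/kg, where all arrays lay below the vehicle range. At 959 mg/kg 1 array at 12.28 was back within it, and the difference was -0.20 (SE 0.08) against -0.15 (SE 0.069) for Mat1a.

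Aldh1l2, a mitochondrial folate dehydrogenase, had levels of 10.3, 10.43 and 10.5 in vehicle and 10.14, 10.16 and 10.28 at 959 mg/kg, with all arrays below the vehicle range (-0.23, SE 0.069). Fbp1, the fructose bisphosphatase of gluconeogenesis, had 12.77, 12.78 and 12.84 in vehicle and 12.54, 12.68 and 12.76 at 959 mg/kg, again with no overlap (-0.14, SE 0.051). Its 6 arrays at 0.959 mg/kg (12.66 to 12.77) also lay below every vehicle array. Pc, the pyruvate carboxylase, differed by -0.19 (SE 0.084), Car5a, the mitochondrial carbonic anhydrase, by -0.29 (SE 0.093), and Mmachc, which processes cobalamin, by -0.20 (SE 0.075). Of 68 measured genes of amino acid breakdown and the urea cycle 3 were members (4.41%), 29 had a rho below 0 and the median rho was 0.051. Of 16 genes of gluconeogenesis and fasting 2 were members (12.5%), 13 had a rho below 0 and the median rho was -0.131. Over all 9867 genes 4450 had a rho below 0. None of either list passed downward by limma at 959 mg/kg or for the line, nor without variance moderation. An unadjusted p under 0.05 at 959 mg/kg was found downward for 6 of 68 and 2 of 16, and upward for 5 and 0. Of all probe sets 6.08% had such a p in either direction.

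The 6 solute carriers differed by -0.34 to -0.04 at 959 mg/kg. Slc7a1, a carrier of arginine and lysine, had the largest difference (-0.34, SE 0.133), and Slc38a3, a glutamine carrier of hepatocytes, differed by -0.13 (SE 0.055). Slc34a2, a phosphate carrier, differed by -0.42 at 95.9 and -0.30 at 959 mg/kg, Slc22a23 by -0.31 and -0.20, and Slc35a2, which carries UDP-galactose, by -0.14 and -0.15. Slc25a22, the mitochondrial glutamate carrier, was lowest at 9.59 and 95.9 mg/kg. Its levels were 9.66, 9.78 and 9.91 in vehicle, 9.74, 9.81 and 9.96 at 0.1, 9.61, 9.66 and 9.79 at 0.959, 9.43, 9.53 and 9.61 at 9.59, 9.42, 9.56 and 9.69 at 95.9, and 9.54, 9.68 and 10.2 at 959 mg/kg.

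Among 8 genes of cell junctions, receptors and the cytoskeleton, Cldn1, a tight junction protein, had levels of 8.56, 8.64 and 9.07 in vehicle and 8.23, 8.44 and 8.71 at 959 mg/kg, a difference of -0.28 (SE 0.086) with 4 of 6 arrays below the vehicle range. The adjusted p of its line in dose rank was 0.0407, on the measure that chose it. It was lost, with adjusted p up to 0.118, without any 1 of 16 arrays: vehicle replicates 3 and 4, replicates 1, 4 and 5 at 0.1, 1 and 6 at 0.959, 2 at 9.59, 1, 2, 3 and 6 at 95.9, and 1, 2, 3 and 5 at 959 mg/kg. Cldn14 differed by -0.32 at 95.9 and -0.16 at 959 mg/kg, and Pkp2, a desmosome protein, by -0.23 and -0.20. The unconventional myosin Myo18a had 6.66, 6.69 and 6.88 in vehicle and 6.3, 6.45 and 6.63 at 959 mg/kg, with no overlap (-0.26, SE 0.071). Its within-group correlation with the actin 3' to 5' difference was 0.568. Correlations of a like size were found for Prkd3 (0.586), Epha2 (0.565), Plin2 (0.564), Rasd1 (0.513) and Slc34a2 (0.511). Next came Fn1 (0.495) and Cars1 (0.483), and the lowest of any member was -0.392 (Nsmf). The small GTPase Rhof differed by -0.38 (SE 0.151), the ephrin receptor Epha2 by -0.38 (SE 0.151), the co-receptor Gfra3 by -0.24 and the microtubule protein Map7d1 by -0.20.

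The largest differences belonged to genes with a wide spread between arrays of 1 dose. Serpinb9b, a serine protease inhibitor gene of the serpin B9 family, had levels of 7.39, 8.62 and 9.48 in vehicle, 8.04, 8.6 and 9.56 at 0.1, 6.61, 8.12 and 8.72 at 0.959, 7.04, 7.84 and 8.88 at 9.59, 6.0, 7.93 and 8.54 at 95.9, and 6.3, 7.17 and 8.94 at 959 mg/kg. The groups overlapped widely, and 5 of 6 at 959 mg/kg were below the vehicle range. The difference at 959 mg/kg was -1.28 (SE 0.454), a vehicle level 2.44 times higher. Plekha1, a phosphoinositide-binding protein, had 8.16, 8.51 and 8.87 in vehicle and 7.4, 7.92 and 8.23 at 959 mg/kg (-0.60, SE 0.153). Otub2, a deubiquitinating enzyme, had 6.83, 7.16 and 7.66 in vehicle, 6.97, 7.11 and 7.47 at 9.59 and 6.09, 6.69 and 6.9 at 959 mg/kg (-0.57, SE 0.157); its group means were within 0.06 of vehicle up to 9.59 mg/kg, with 0.16 at 0.1 mg/kg without replicate 6. Xiap, an inhibitor of caspases, differed by -0.47 (SE 0.20) at 959 mg/kg and by -0.32 at 0.1 mg/kg, or -0.06 there without replicate 6. At 959 mg/kg replicate 6 of that dose was its low array (7.6 against 8.34 to 8.82), and without it the difference was -0.31. Rasd1, a Ras-like protein induced by glucocorticoids, differed by -0.41 (SE 0.125), Gne, the first enzyme of sialic acid synthesis, by -0.39 (SE 0.131), and Il33, a cytokine released from damaged cells, by -0.35 (SE 0.156).

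The remaining ubiquitin and signalling genes were the ubiquitin ligases Rnf216 (-0.15, all 6 arrays below the vehicle range) and Siah2 (-0.31), the kinases Stk24 (-0.11) and Prkd3 (-0.17), and the calcium channels Itpr2 (-0.21) and Tpcn2 (-0.13). Of 8 nuclear genes, Nbn, which senses DNA breaks, had 8.87, 8.92 and 8.97 in vehicle and 8.62, 8.76 and 8.84 at 959 mg/kg, with no overlap (-0.18, SE 0.059). Brd3, Helq, Pax8, Zfp317, H2al2l, Samd11 and Btg3 differed by -0.23 to -0.12. That of Brd3 was -0.18, and -0.08 without 959 mg/kg replicate 6. Leaving out 1 array at 959 mg/kg shrank the difference by over 1.5 times for 10 members: Brd3, Xiap, Eprs1, Slc25a22, Tctn3, Pkp2, Klhdc7a, Tor3a, Phyhip and Apoh. The last 16 genes were Pdia5, Tor3a, Mia2, Eva1a, Tctn3, Klhdc7a, Tmem144, Ccdc191, Nsmf, Wdr41, Fam98c, Phyhip, Ly6g6e, Pgrmc2, LOC100911992 and LOC102550999. None of these had all 6 arrays at 959 mg/kg below the vehicle range, and the difference of Tor3a was the largest (-0.34, SE 0.139) and that of Phyhip the smallest (-0.09, SE 0.064).

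The shape of the group means around a straight line was also fitted. It comes from the same 36 values per gene that chose the members, so the counts are a description. limma's F-test over the 4 contrasts orthogonal to the line asked whether group means departed from it. None of the 100 passed (smallest adjusted p = 0.624), where 0.00644% of probe sets passed, and 5 had an unadjusted p under 0.05, as had 5.98% of probe sets. They were Slc25a22 (0.00209), Cldn14 (0.0284), Eva1a (0.0359), Stk24 (0.0414) and Larp1b (0.0444). Under each alternative setting run, 0 members passed too, and the same held for curvature. For curvature in dose rank 0 of 100 passed (smallest adjusted p = 0.689), where 0.00966% of probe sets passed, and 8 had an unadjusted p under 0.05, where 6.47% of probe sets had. Of these, Gnmt, Larp1b, Slc25a22 and Cldn14 had a positive curvature, with more of the difference reached at the lower doses, and Otub2, Mars1, Lars1 and Cpt2 a negative one, with more of it at the highest. Over all members the curvature was above 0 in 50 of 100, and in 39.1% of the 9867 genes. The members' shares at an unadjusted p under 0.05 lie near those of all probe sets, and nothing is read from them.

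**Figure D4:**
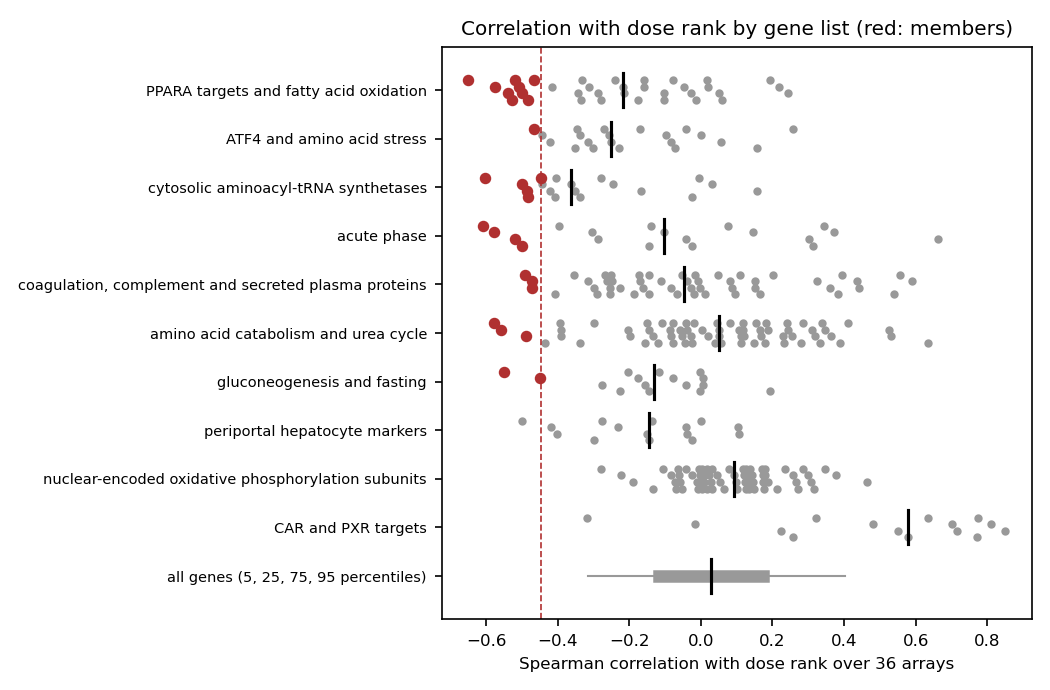
Spearman correlation with dose rank (x axis) of every measured gene of 10 lists (grey points, members in red) with list medians (black bars), and below them the 5 to 95 percentile range, quartiles and median of all genes. The dashed line is the limit at -0.446; the medians of the synthetase (-0.363), ATF4 (-0.252) and PPARA lists (-0.218) lie left of that of all genes (0.028), and that of CAR and PXR targets (0.579) right of it.

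Lists fixed with the design held 26 of the members, and 74 were in none of them. Lists with no member included the oxidative phosphorylation subunits (67 measured, median rho 0.092), the cell cycle (23, median 0.388), cholesterol synthesis (20, median -0.057), fatty acid and triglyceride synthesis (21, median -0.117), protein folding in the endoplasmic reticulum (26, median -0.007) and all lists of cells other than hepatocytes. The targets of the xenobiotic receptors CAR and PXR had no member, and 8 of 15 rose for the line. Among periportal hepatocyte markers 12 of 15 had a rho below 0, against 4450 of all 9867 genes. Of the 15, 3 are barred by the rule and none of the others was a member. The list of peroxisome genes had 1 member of 22 (Hao1) and that of one-carbon and cofactor genes 1 of 29 (Aldh1l2).

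Other probe sets of the same genes give another reading on the same arrays. Of the members 34 had at least 1 other single-symbol probe set, 49 in all. All 33 of these with a mean of 5 or more had a rho below 0 (-0.686 to -0.063, median -0.373), and 31 were lower at 959 mg/kg than in vehicle. The 5 with a rho above 0 had means of 4.92 or less. Over all 9867 genes 4450 had a rho below 0 and 48.2% were below vehicle at 959 mg/kg. These probe sets read the same RNA that chose the members, so the counts are no independent check and nothing is read from them. For Cars1, 2 of the 3 dimmer probe sets gave a lower rho than the one taken. They had means of 8.04 and 7.87, rho of -0.686 and -0.68, and differences of -0.41 and -0.44 at 959 mg/kg. Both passed for the line over all probe sets by limma (adjusted p = 0.00268 and 0.0181), the latter up to 0.0619 without vehicle replicate 4 or 959 mg/kg replicate 4. The third, with a mean of 3.99, had a rho of -0.408. For Cldn1 another probe set gave -0.44 and a further one -0.20, neither passing, and for Il33 another gave -0.50. The 2 other Eprs1 probe sets above a level of 5 gave -0.19 and -0.40. A dimmer probe set of Fga, with a mean of 12.18, differed by -0.16 against -0.07 for the one taken, and that of Acsl1, with a mean of 12.49, by -0.21 against -0.10. For Hadha and Fgb the other probe sets were dim, with means of 3.16 to 4.35, and differed by -0.07 to 0.02.

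**Figure D5:**
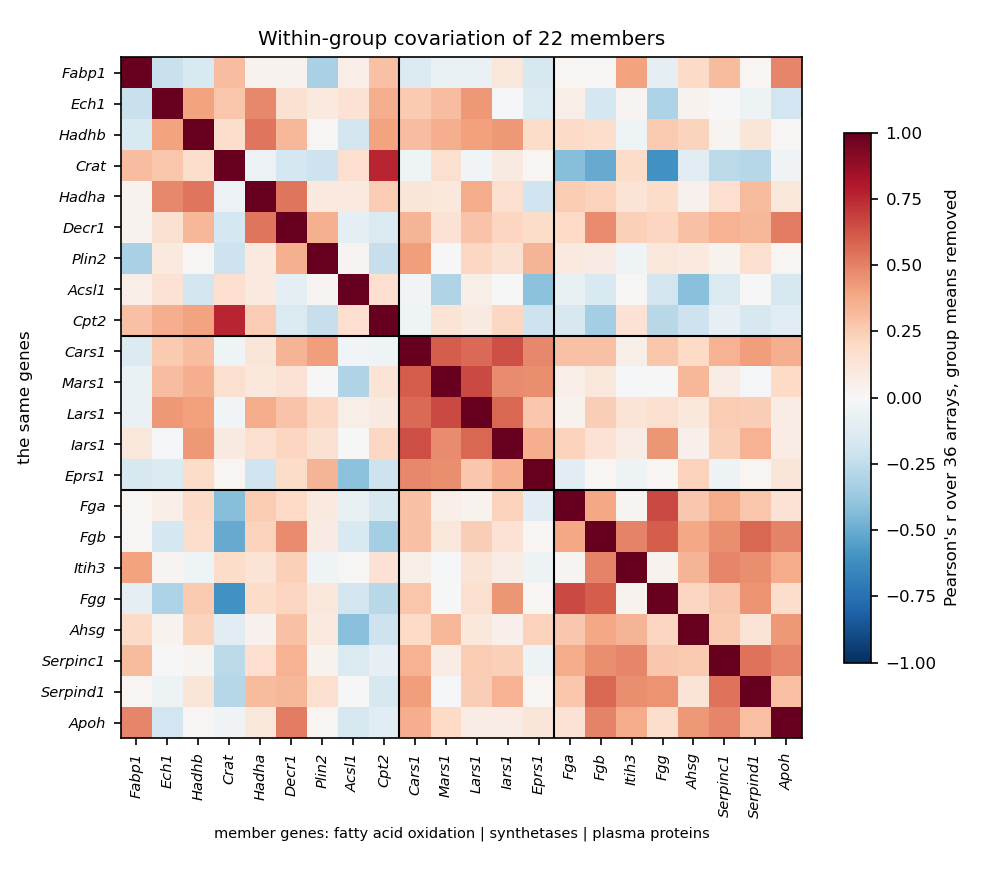
Pearson's r between 22 members over 36 arrays after group means were removed (colour), ordered by group: fatty acid oxidation, synthetases, plasma proteins. The synthetase block is red throughout (0.27 to 0.661), the plasma protein block is 0.026 to 0.664, and the fatty acid block is mixed (-0.325 to 0.761).

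Correlations between members were taken over the arrays after group means were removed. The spread within groups also enters rho, so they are not independent of the rule; they describe 36 arrays that share hybridisation and RNA quality, and no p is given. Over all 4950 pairs the median r was 0.047, against 0.018 over pairs of all genes, and 2.02% of pairs exceeded 0.5, against 1.89%. The 5 synthetases had a median r of 0.522 (0.27 to 0.661), and 0.417 (0.01 to 0.651) without 0.1 mg/kg replicate 6. Mars1 with Lars1 gave 0.661 (0.651 without that array) and Cars1 with Iars1 0.644 (0.536). Mthfd2 with Mars1 gave 0.624 (0.587), and the barred genes Asns and Aldh18a1 had median correlations of 0.498 (0.511) and 0.444 (0.397) with the 5 synthetases.

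The 8 plasma protein genes of the lists had a median r of 0.378 (0.357 without that array), led by Fga with Fgg (0.664) and Fgb with Fgg (0.603). The 9 fatty acid genes had a median of 0.122 (0.139 without it). Within them Crat went with Cpt2 (0.761), and Hadha with Hadhb (0.532) and with Decr1 (0.539), while Crat and Fgg ran opposite (-0.604). Between fatty acid genes and synthetases the median was 0.119, and between synthetases and plasma proteins 0.127. The highest correlations of all, Brd3 with Eprs1 (0.882), Brd3 with Xiap (0.828) and Xiap with Eprs1 (0.814), were 0.716, 0.651 and 0.594 without 0.1 mg/kg replicate 6. All 3 genes were lowest in their group on that array and also on 959 mg/kg replicate 6, and without both arrays the correlations were 0.234, 0.375 and 0.254.

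The rule's exclusions removed genes from the same end of the ranking. The 13 that would otherwise have been at or below the limit were Pemt, Cyp4a3, Ak4, Acot3, Pik3ap1, Fads2, Cyp4a1, Aldh18a1, Cyp2b3, Acot4, Cyp4f6, Gls2 and Cyp2c7. Pemt, which methylates phosphatidylethanolamine, had the lowest rho of all (-0.742), with a mean of 11.66 (SD 0.069, n = 6) in vehicle and 11.42 (SD 0.084, n = 6) at 959 mg/kg. Cyp4a3, an omega-hydroxylase of fatty acids controlled by PPARA, had 11.88 (SD 0.24, n = 6) and 11.49 (SD 0.086, n = 6). Within groups Cyp4a3 had a median r of 0.331 with the 9 fatty acid members, and -0.101 with the 8 plasma protein members. Of the 18 probe sets that passed downward for the line, 2 stood for members and 2 were the other Cars1 probe sets.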

How the data were processed

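The deposited values are log2 RMA signals of Affymetrix arrays, 1 column per sample, which the authors computed with the affy package, per the submitters' processing notes; its version is not given in the sources used here. RMA corrects background, normalizes quantiles between arrays and summarises probes, so levels are relative to the array and between-gene differences in level are not measured. No counts or depth exist for arrays, and the precision is set by the 6 arrays of a group. After removal of 57 control probe sets 31042 were tested; 20826 carried 1 gene symbol, 436 several and 9780 none, which gave 14217 genes.

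limma 3.58.1 in R 4.3.3 fitted a mean for each of the 6 groups, with 30 residual degrees of freedom and 5.12 from moderation. Tests were two-sided with Benjamini-Hochberg adjustment over all probe sets and a threshold of 0.05. The design text names maanova, which was not at hand. Named genes were the 15 members of lowest rho, the 10 of largest difference, up to 4 per list or of highest level, the 5 of smallest p for departure, 3 on each side of the limit, members with another probe set of rho above 0, and the left-out genes; others were chosen after their values were seen. The members and lists were chosen with earlier results of these data known. Alternatives were other normalization and centring, brighter probe sets, the brightest probe set per gene, array weights, other variance estimates, fits to fewer arrays, the replicate number as a block, and leaving out each array in turn. The model fits were tested on simulated data.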

Additional observations from a re-analysis of the deposited data

Results flagged for a closer look

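For the 52 named members, each dose group of 6 arrays was searched for an array far from the others, by the gap to its nearest neighbour as a share of the group's range (Dixon's ratio). Its 95% critical value was exceeded in 31 of 312 groups, where chance gives about 1 in 20, and the 52 genes share arrays. No cause was tested.

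Replicate 6 of the 0.1 mg/kg group was the low array for 6 genes. Eprs1 had a ratio of 0.843, with a level of 9.08 against 10.51 to 10.77 on the other 5 arrays. Cars1 had 0.826 (8.14 against 8.71 to 8.83), Brd3 0.746 (8.01 against 8.74 to 8.99), Xiap 0.702 (7.25 against 8.58 to 9.15), Fbp1 0.7 (12.63 against 12.8 to 12.88) and Iars1 0.69 (7.95 against 8.3 to 8.45). This is the array of lowest weight. Without it the difference at 0.1 mg/kg was 0.10 in place of -0.17 for Eprs1 and 0.04 in place of -0.07 for Cars1. It was 0.07 in place of -0.07 for Brd3 and -0.06 in place of -0.32 for Xiap. For Fbp1 it was 0.05 in place of 0.01, and for Iars1 0.01 in place of -0.07.

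At 959 mg/kg, replicate 6 was low for Eprs1 (ratio 0.726, level 9.52 against 10.23 to 10.49) and Brd3 (0.683) and high for Helq (0.796) and Scarb1 (0.762). Replicate 4 was high for Slc25a22 (0.702, level 10.2 against 9.54 to 9.74), 1 of 9 members whose mean at 959 mg/kg lay above those at 9.59 and 95.9 mg/kg, and replicate 1 was low for Tctn3 (0.691).

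At 95.9 mg/kg, replicate 5 was high for Hao1 (0.73) and Tctn3 (0.711). Replicate 3 was high for Myo18a (0.671) and low for Mthfd2 (0.671), replicate 4 low for Ahsg (0.757) and Epha2 (0.646), replicate 2 high for Stk24 (0.688) and replicate 6 low for Rasd1 (0.666). At 9.59 mg/kg, replicate 5 was low for Il33 (0.649, level 7.53 against 8.29 to 8.7) and high for Slc7a1 (0.707, level 6.83 against 5.82 to 6.12), replicate 4 low for Larp1b (0.726) and replicate 3 low for Apoh (0.66).

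At 0.959 mg/kg, replicate 6 was low for Fabp1 (0.783, level 14.17 against 14.24 to 14.25), replicate 1 low for Acsl1 (0.743) and replicate 4 high for Myo18a (0.687). At 0.1 mg/kg, replicate 2 was high for Agxt (0.65) and replicate 5 high for Lars1 (0.626). In vehicle, replicate 2 was high for Spp2 (0.778) and replicate 1 low for Apoh (0.74). For Spp2 and Apoh the odd array differed by under 0.1 on the log2 scale from its nearest neighbour.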

How the results depend on the processing

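With only the arrays of the 2 groups compared in the fit, the probe sets that passed were 1 in place of 9 at 0.959, 19 in place of 36 at 9.59, 16 in place of 28 at 95.9 and 13 in place of 34 at 959 mg/kg. With the brightest probe set per gene the count at 0.959 mg/kg was 5, and that for departure from a line 1 in place of 2, or 4 with an intensity trend and robust estimation. Of the 100 genes, 36 were among the 100 of lowest rho without the vehicle arrays and 45 without those at 959 mg/kg. Members that passed for the line, 2 in all, were 8 after a further quantile normalization or with the brightest probe set, 0 with each array centred on its median, 11 with the brighter probe sets alone, 5 without variance moderation, 6 with the trend and 7 with array weights. In the main fit 0.393% of probe sets passed for the line. As the line measures what the rule selected on, and some settings test fewer probe sets, nothing is read from these member counts. Without the 959 mg/kg arrays, 3 fatty acid genes (9 otherwise) and 1 synthetase (5 otherwise) were among the 100. Acute phase genes among the 100, 4 otherwise, were 2 with median centring, with limma's t in place of rho or with the mean over probe sets, and 1 without the vehicle arrays. These list counts, and leaving out replicate 6 at 0.1 or 959 mg/kg, were chosen after seeing the data.

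With 1 array left out at a time, the probe sets that passed ranged from 4 to 10 at 0.959, 20 to 45 at 9.59, 19 to 38 at 95.9, 22 to 42 at 959 mg/kg, 92 to 156 for the line (122 with all arrays) and 2 to 4 for departure. Members shared with the list of 100 ranged from 76 to 97, members that passed for the line from 0 to 7, fatty acid genes from 7 to 9 and synthetases from 2 to 8. Abcb4 passed for the line in 36 of 45 alternatives, and not with median centring (adjusted p = 0.0528). Cldn1 passed in 26 of 45, and not with median centring (0.0628) or without moderation (0.0539). The log2 differences at 959 mg/kg of the 52 named members stayed below 0 in 780 values. The rule chose these genes for falling with dose, and most of the values leave out only 1 array. Nothing is therefore read from their sign. All shifts were under 1 SD of the 959 mg/kg group, but leaving out 1 of its 6 arrays cannot move its mean that far. Nothing is therefore read from the size of the shifts. That of Slc25a22 went from -0.04 to -0.00 without 959 mg/kg replicate 6. Median centring moved the median of all probe sets at 959 mg/kg from -0.001 to 0.006.

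The replicate numbers did not pair the arrays. Over 90 pairs of arrays with the same number the correlation of deviations was -0.239 to 0.375 (median -0.034, against 0.009 for different numbers), and 4 of 36 arrays correlated best with one of their own number. With the replicate block 1 member passed for the line, Abcb4, and Cldn1 did not (adjusted p = 0.0696).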
